A study of Homo sapiens with 6 samples.

Results

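The chromatin at 8 genes of the ETS family of transcription factors was described in an acute myeloid leukemia line edited at mutant NPM1 and in its control. The genes were SPI1, SPIB, FLI1, ERG, ETV6, ELF1, ETS1 and ETS2, out of 20162 protein-coding genes annotated on GRCh37 and 19663 on GRCh38. They were chosen by name, by a rule that uses no measured value. For each gene, every listed peak in the gene record with 20 kb on either side was taken; this stretch is called the locus here. Together the 8 loci held 265 H3K27Ac peaks in the control and 168 in the edited cells, and 149 and 25 H3K4me3 peaks. The whole lists held 327715 and 317059 H3K27Ac peaks, and 353628 and 106641 H3K4me3 peaks.

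ETS factors share a DNA-binding domain that recognises a GGAA core. PU.1, the product of SPI1, is a master regulator of myeloid and B cell development, and its dose decides how far a myeloid progenitor matures. In blood cells SPI1 is driven from its promoter together with an upstream regulatory element about 17 kb before the start, where PU.1 itself and RUNX1 are known to bind. SPIB is its closest relative and is used mainly by B cells and plasmacytoid dendritic cells. FLI1 and ERG are close paralogs that maintain stem and progenitor cells, ETV6 is a repressor needed for adult haematopoiesis, ELF1 acts widely in blood cells, and ETS1 and ETS2 are targets of the MAP kinase pathway. H3K27Ac is an acetyl mark of active promoters and enhancers, and H3K4me3 is a methyl mark of active promoters.

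By their labels all libraries came from OCI-AML3, an established acute myeloid leukemia line that carries mutant NPM1, DNMT3A and NRAS. Cells were transfected with the control guide sgNeg or with sgNpm1A, a guide against mutant NPM1, and taken at 72 h, given in the sample names as 3 days, whereas the methods text states a longer culture. Each guide had 1 library for each mark and 1 input library, the inputs not being analysed here. The comparison asked how active chromatin at the ETS genes differed when mutant NPM1 was edited. With 1 library in each group no spread between replicates exists, so no difference given here was tested, and intervals cover counting error only.

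Values were read within each list, because the lists differed as a whole. A peak's fold enrichment is its signal over the background expected in that library. Its percentile is its rank from the lowest fold enrichment up, as a percentage of the list, with tied peaks sharing their mean rank. A promoter peak is the highest one within 1 kb of an annotated transcript start, and a gene with none was given percentile 0. A distal peak touches no promoter of any protein-coding gene. Of all genes, 79.1% had an H3K27Ac promoter peak in sgNeg and 57.0% in sgNpm1A, and 68.3% and 9.49% had an H3K4me3 promoter peak. The H3K4me3 lists rested on a background of 3.81 fragments in sgNeg and 2.93 in sgNpm1A, their lowest listed summits were 11 and 10 fragments, and their narrowest peaks were 110 and 245 bp. The H3K27Ac lists reached down to fold enrichments of 2.54 in sgNeg and 2.66 in sgNpm1A, with narrowest peaks of 110 and 140 bp. The sgNeg list thus took in weaker and narrower H3K27Ac peaks, and peaks just above these limits were close to not being listed. The largest listed H3K27Ac q-values were 0.0707 in sgNeg and 0.0437 in sgNpm1A. A gene without a peak had none that passed the peak calling of its list, and its mark was not shown to be absent. The H3K27Ac lists followed GRCh37 and the H3K4me3 lists GRCh38, so the marks are set side by side only by distance from the gene record's start. The H3K27Ac lists also carried the tag OCI2 in their names and the H3K4me3 lists OCI3, while the labels of all 4 give OCI-AML3, and the study also worked with OCI-AML2, a line whose own NPM1 is wild type. Whether the H3K27Ac lists came from OCI-AML3 could not be settled, so every H3K27Ac value below rests on the label. Of the myeloid marker genes 8 of 8 had an H3K27Ac promoter peak in sgNeg and 5 of 8 in sgNpm1A. Promoter peaks were also listed in sgNeg at 6 of 6 B cell, 4 of 5 T cell, 3 of 5 erythroid and 5 of 5 epithelial or stromal genes, with none of these at percentile 99 or above against 3 of the myeloid genes, so presence alone did not set the cell type apart. In sgNpm1A the counts for these lists were 5 of 6, 3 of 5, 3 of 5 and 4 of 5.

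The sequence under the SPI1 upstream element is shown because the widest H3K27Ac peak of the SPI1 locus lay over it in the control. The stretch from 15 to 19 kb upstream of the start held 9 copies of AGGAAG, a form of the ETS core, and 3 copies of TGTGGT, the RUNX core, counting both strands. The 300 bases with most copies of both are printed below on the strand of SPI1, with the copies in capitals. They lay 16.1 to 16.4 kb upstream and held 3 copies of AGGAAG and 1 of TGTGGT, which shares a base with a neighbouring ETS core. Of 35114 RefSeq promoter sequences of the same length, 33.7% held AGGAAG, 13.1% held TGTGGT and 0.558% held 4 or more copies of both together. The printed bases were picked for their copies, and the promoter sequences were not and are not distal sequence. These shares therefore do not show how unusual the stretch is. A match is a description of these letters and not a site of binding.
SPI1 upstream (chr11:47416190-47416489, minus strand, GRCh37): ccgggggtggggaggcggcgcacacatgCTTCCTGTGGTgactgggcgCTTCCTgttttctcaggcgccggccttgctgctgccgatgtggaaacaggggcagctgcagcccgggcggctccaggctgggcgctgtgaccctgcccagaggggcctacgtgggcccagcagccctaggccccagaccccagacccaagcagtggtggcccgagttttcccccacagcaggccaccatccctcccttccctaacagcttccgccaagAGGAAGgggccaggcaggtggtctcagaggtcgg

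Distal sites listed in both guides are shown next, for comparison with the upstream element. They are the 3 distal H3K27Ac sites of the loci that had the highest percentiles in sgNpm1A and were overlapped by a sgNeg peak. For each, 300 bases from the middle of the shared stretch are printed on the strand of the gene, with runs of TGTGTGTG and copies of GGAA, on either strand, in capitals. The ERG and FLI1 sites were made largely of TG repeats, and the ETS2 site held no such run and 5 copies of GGAA.
ERG site (chr21:39994621-39994920, minus strand, GRCh37): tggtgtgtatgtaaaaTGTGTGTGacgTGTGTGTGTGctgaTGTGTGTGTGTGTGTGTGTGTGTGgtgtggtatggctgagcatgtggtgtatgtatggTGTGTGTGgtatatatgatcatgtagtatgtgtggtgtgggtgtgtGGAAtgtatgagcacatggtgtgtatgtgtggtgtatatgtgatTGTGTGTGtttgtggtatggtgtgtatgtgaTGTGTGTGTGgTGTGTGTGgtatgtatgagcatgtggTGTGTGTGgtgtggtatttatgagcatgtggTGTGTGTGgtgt
FLI1 site (chr11:128635649-128635948, plus strand, GRCh37): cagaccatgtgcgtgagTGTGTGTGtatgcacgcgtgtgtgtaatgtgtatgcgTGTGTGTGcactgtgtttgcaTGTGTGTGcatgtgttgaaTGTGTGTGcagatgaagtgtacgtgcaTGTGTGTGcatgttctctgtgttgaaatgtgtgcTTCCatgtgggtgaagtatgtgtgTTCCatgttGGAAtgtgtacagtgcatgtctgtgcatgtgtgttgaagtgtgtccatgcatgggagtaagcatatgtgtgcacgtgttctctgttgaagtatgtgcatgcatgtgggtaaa
ETS2 site (chr21:40204628-40204927, plus strand, GRCh37): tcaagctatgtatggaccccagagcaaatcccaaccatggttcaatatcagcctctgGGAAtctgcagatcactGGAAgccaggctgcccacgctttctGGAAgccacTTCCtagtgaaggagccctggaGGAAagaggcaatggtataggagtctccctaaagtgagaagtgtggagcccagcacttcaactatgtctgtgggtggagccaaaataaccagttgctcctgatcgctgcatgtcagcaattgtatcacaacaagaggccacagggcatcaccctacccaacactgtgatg

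Promoters of 5 of the 8 genes were matched in RefSeq (GRCh38.p14). The 250 bases before the start are printed with GGAA, on either strand, in capitals, to show how unlike each other the promoters of the family are. The first comes from the gene with the strongest H3K4me3 promoter peak of the 8, and the last from a gene with no H3K4me3 promoter peak.
ETS2 promoter (chr21:38805679-38805928, plus strand, GRCh38.p14): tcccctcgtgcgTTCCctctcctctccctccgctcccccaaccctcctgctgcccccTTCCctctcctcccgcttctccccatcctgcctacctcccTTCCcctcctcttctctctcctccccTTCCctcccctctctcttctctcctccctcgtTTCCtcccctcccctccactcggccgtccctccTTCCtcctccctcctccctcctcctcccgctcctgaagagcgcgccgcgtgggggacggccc
ETV6 promoter (chr12:11649424-11649673, plus strand, GRCh38.p14): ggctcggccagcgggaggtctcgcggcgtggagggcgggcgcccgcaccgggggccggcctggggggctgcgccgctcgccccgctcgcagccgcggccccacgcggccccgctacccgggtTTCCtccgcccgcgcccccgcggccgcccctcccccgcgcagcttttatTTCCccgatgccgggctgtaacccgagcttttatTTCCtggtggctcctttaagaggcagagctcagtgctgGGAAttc
ELF1 promoter (chr13:41061387-41061636, minus strand, GRCh38.p14): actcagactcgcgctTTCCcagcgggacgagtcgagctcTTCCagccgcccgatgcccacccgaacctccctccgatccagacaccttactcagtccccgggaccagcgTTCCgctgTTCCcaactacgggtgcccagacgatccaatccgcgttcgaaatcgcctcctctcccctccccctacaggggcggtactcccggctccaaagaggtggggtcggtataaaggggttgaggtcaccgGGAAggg
ERG promoter (chr21:38660668-38660917, minus strand, GRCh38.p14): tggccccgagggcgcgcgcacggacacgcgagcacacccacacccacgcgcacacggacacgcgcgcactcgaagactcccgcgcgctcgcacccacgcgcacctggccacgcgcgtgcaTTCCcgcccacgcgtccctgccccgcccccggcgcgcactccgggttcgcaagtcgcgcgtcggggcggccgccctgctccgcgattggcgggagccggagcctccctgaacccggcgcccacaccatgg
SPIB promoter (chr19:50418688-50418937, plus strand, GRCh38.p14): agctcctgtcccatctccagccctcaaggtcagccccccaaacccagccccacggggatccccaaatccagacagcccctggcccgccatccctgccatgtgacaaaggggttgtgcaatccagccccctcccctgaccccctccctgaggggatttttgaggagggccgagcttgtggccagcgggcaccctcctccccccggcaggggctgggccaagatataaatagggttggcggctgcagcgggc

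The ETS2 stretch held 6 copies of GGAA, ELF1 5, ETV6 4, ERG 1 and SPIB 0, against a median of 3 and a share of 92.7% with at least 1 over all promoters. The CpG content, as the ratio of observed to expected CpG, was 1.23 in ERG, 0.93 in ETV6, 0.887 in ELF1, 0.83 in ETS2 and 0.261 in SPIB, with a median of 0.558 over all promoters. ERG thus stood at percentile 99.47 of promoters for CpG and SPIB at percentile 29.4. The SPIB sequence, poor in CpG and without a GGAA core, was also the only one of these 5 with no H3K4me3 promoter peak in either guide.

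At the promoters, H3K27Ac was ranked lower in sgNpm1A at all 8 genes, and H3K4me3 was no longer listed at any. At FLI1, ERG and ETS1 the H3K27Ac values compared came from different peaks at different starts. At ERG the difference in percentile, sgNpm1A minus sgNeg, was -2.38, but -97.7 at the record start alone. At FLI1 it was -13.8, but 11.7 at the record start alone. An H3K27Ac promoter peak was listed for 8 of 8 genes in sgNeg and for 5 of 8 in sgNpm1A, where SPIB, ETV6 and ELF1 had none. Among all promoters with a sgNeg peak, 34.0% had none in sgNpm1A and 82.9% were ranked lower, so 3 of 8 without a peak was near the background. The median promoter percentile of the 8 was 99.2 in sgNeg and 44.7 in sgNpm1A, against 92.4 and 23 over all genes. An H3K4me3 promoter peak was listed for 6 of 8 genes in sgNeg, not for SPIB and ETS1, and for 0 of 8 in sgNpm1A. Of all promoters with an H3K4me3 peak in sgNeg 88.6% had none in sgNpm1A, so most promoters of the genome shared this. ETS2 and SPI1 had the highest H3K4me3 promoter percentiles in sgNeg, and SPI1, FLI1 and ETV6 the highest for H3K27Ac.

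**Figure D1:**
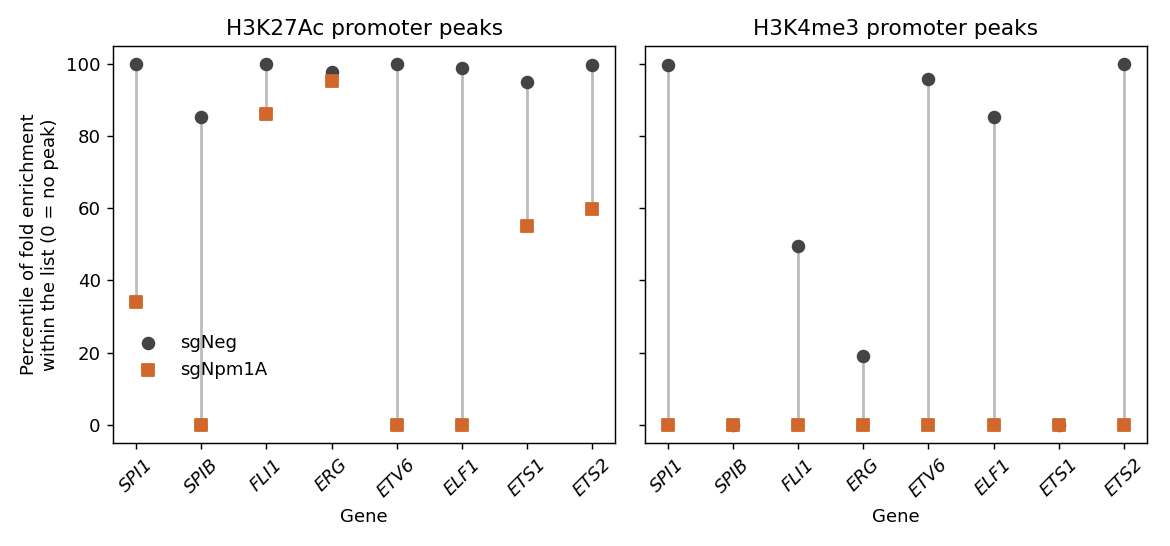
Percentile of the promoter peak's fold enrichment within its own list (y axis, 0 to 100, with 0 where no peak was listed) for each of the 8 genes (x axis), H3K27Ac on the left and H3K4me3 on the right. Circles are sgNeg and squares sgNpm1A, 1 library each, joined by a line for each gene. Every H3K27Ac square lies below its circle, by little at ERG, and all H3K4me3 squares lie at 0. At FLI1, ERG and ETS1 the H3K27Ac circle and square are different peaks at different starts. For SPI1, FLI1 and ETS1 the H3K4me3 values use the record start only.

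SPI1 had the strongest H3K27Ac of the 8 in the control, at its promoter and upstream element alike. In sgNeg a peak of 6304 bp at chr11:47395073-47401376 (GRCh37) spanned the promoter, exon 1 and exon 2, with a fold enrichment of 10.5, rank 101 of the list. In sgNpm1A the promoter was left with a peak of 668 bp in intron 1 at chr11:47398763-47399430, fold enrichment 2.83, at percentile 34.1, and a peak of 157 bp upstream at chr11:47400559-47400715, fold enrichment 2.67. Neither covered the transcript start itself, and the lowest fold enrichment of that list was 2.66. The size of the difference in promoter percentile, sgNpm1A minus sgNeg, depended on the settings: it was -65.9 here, -92.7 within 0.5 kb of a start, -21.9 within 2 kb, and -99.9 with peaks at a q-value under 0.01. A further fragment of 1186 bp at chr11:47396889-47398074 lay over exon 2 with a fold enrichment of 3.21. The broad promoter domain of the control was thus listed as 3 short separate peaks in the edited cells.

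The upstream element lay inside the widest H3K27Ac peak of the SPI1 locus. In sgNeg this peak covered 14803 bp at chr11:47408616-47423418, from 8.52 to 23.3 kb upstream, over the noncoding genes SLC39A13-AS1 and MIR4487, and touched no promoter of a protein-coding gene. Its fold enrichment was 10.6, rank 98 of 327715, just above the promoter's. In sgNpm1A 3 fragments remained inside it, 1427 bp at 10.3 to 11.7 kb upstream (fold enrichment 3.13), 336 bp at 18.7 to 19 kb (3.04) and 405 bp at 19.6 to 20.0 kb (2.7). The last of these was near the lowest fold enrichment of that list, 2.66. The gap between the fragments held the 300 bases printed above. Of the window from 15 to 19 kb upstream, 100% was under peaks in sgNeg and 8.4% in sgNpm1A. Only 1.29% of all genes had this window wholly covered in sgNeg, which put SPI1 at percentile 99.36 of genes, and at percentile 67.0 in sgNpm1A. Among genes with a sgNeg peak in the window, 47.6% kept less than 0.5 times its covered length.

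H3K4me3 at SPI1 had its broadest peak at the promoter. In sgNeg it covered 4340 bp at chr11:47374251-47378590 (GRCh38), from the start into the gene, rank 22 of its list by width, with a fold enrichment of 10.6 and a summit of 50 fragments (95% Poisson interval 37.1 to 65.9). No peak was listed within 1 kb of the start in sgNpm1A, and the lowest summit of that list was 10 fragments. The upstream window held 1 narrow sgNeg peak of 249 bp at 18.7 to 19 kb, with a summit of 15 fragments, which covered 6.22% of it, and none in sgNpm1A, where among genes with a sgNeg peak in the window 71.1% had less than 0.5 times its covered length. That position matched, by distance from the start, a fragment of H3K27Ac that was kept in sgNpm1A.

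Part of the SPI1 locus was listed in both guides. At the 3′ end of the gene an H3K27Ac peak of 4963 bp in sgNeg (chr11:47377163-47382125, fold enrichment 5.95, percentile 99.14) and one of 5028 bp in sgNpm1A (chr11:47376950-47381977, 3.52, percentile 91.8) covered nearly the same stretch over exons 3 and 4 and, in sgNpm1A, the edge of exon 5. Its width in sgNpm1A was at percentile 99.75 of that list, and it was the 1 peak of 5 kb or wider among the 168 in the 8 loci. The share of TG or CA dinucleotides in it was 23.8% in both lists, at percentile 98.8 of sgNeg peaks, against 15.6% in the upstream peak and 14.5% in the genome. Of the other 16 sgNpm1A peaks of the locus 8 lay farther downstream, in MYBPC3, whose product is a cardiac sarcomere protein. At the MYBPC3 start the H3K27Ac peaks were 2371 bp in sgNeg (fold enrichment 3.26) and 1147 bp in sgNpm1A (3.28). In all, 67.2% of the SPI1 locus was under H3K27Ac peaks in sgNeg and 27.6% in sgNpm1A, and 14.8% and 1.83% under H3K4me3 peaks. With all peaks the locus was at percentile 90.8 of all loci for H3K27Ac in sgNpm1A, and at percentile 98.5 in sgNeg. The ratio of covered H3K27Ac length, sgNpm1A to sgNeg, was 0.411, and 0.435 with peaks at a q-value under 0.01. It was 0 at a q-value under 1e-05 and over the 20000 peaks of lowest p-value, so the coverage left in sgNpm1A came from weaker peaks.

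**Figure D2:**
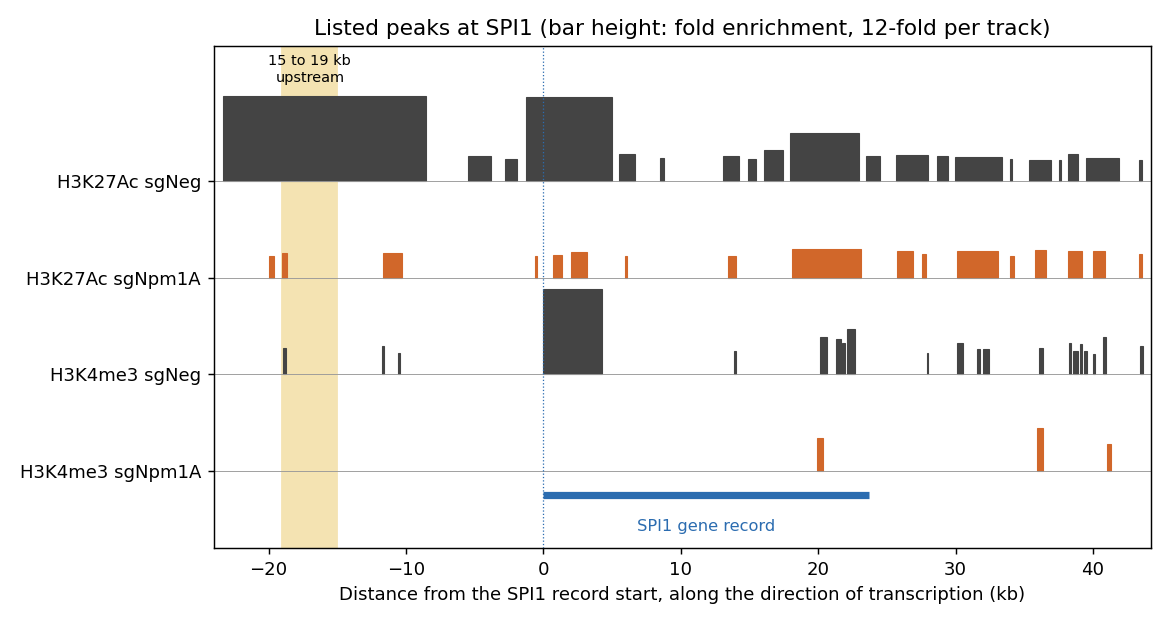
Peaks listed at SPI1 in the 4 lists, drawn by distance from the start of the gene record in the direction of transcription (x axis, kb), with the height of each bar giving fold enrichment on a scale of 12 per track. The shaded band is 15 to 19 kb upstream. The sgNeg H3K27Ac track fills the band and the promoter with 2 tall bars of 10.6 and 10.5, where the sgNpm1A track holds short fragments, and the 3′ bar is present in both.

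Over the 4 lists, the genes with promoter percentiles most like those of SPI1 were VASP, an actin regulator, LMNB1, a nuclear lamin, and NCBP1, an mRNA cap-binding protein. Their Euclidean distances from SPI1 were 0.293, 0.493 and 0.716 percentile points among 19077 genes. Altogether 186 genes lay within 5 points, so a strong control promoter with no H3K4me3 and a weak H3K27Ac peak in sgNpm1A was not particular to SPI1.

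SPIB, the closest relative of SPI1, had its marks mostly outside its own gene. Its sgNeg promoter peak of 5673 bp (chr19:50916900-50922572, fold enrichment 3.18, percentile 85.2) lay mostly over the 3′ part of the neighbouring gene POLD1, a DNA polymerase subunit, and reached only 377 bp into SPIB. In sgNpm1A 2 short pieces of it were listed over POLD1, with fold enrichments of 3.25 and 2.68, and none within 1 kb of the SPIB start. No H3K4me3 peak was listed at the SPIB promoter with either guide, and the 3 sgNpm1A peaks of the locus lay 8.07 to 9.47 kb upstream and 17.4 to 18.6 kb downstream of the start. The H3K27Ac share of the locus was 25.4% with sgNeg and 16% with sgNpm1A, and the ratio of covered length was 0.63. It was under 0.5 with a flank of 10 kb (0.46) and with peaks at a q-value under 0.01 (0.227). H3K4me3 covered 7.06% in sgNeg and 4.02% in sgNpm1A, the latter the highest share of the 8 loci in that list. The start of MYBPC2, a muscle gene in the same locus, had an H3K4me3 peak of 212 bp in sgNeg (fold enrichment 3.33) and no other peak, and a protein-coding record without a symbol, ENSG00000142539, shares the promoter peaks over SPIB and POLD1. These values belong to the neighbours as much as to SPIB.

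At FLI1 an inner start had H3K27Ac of nearly the same rank with both guides, and the strongest control peak lay elsewhere. The strongest sgNeg peak, of 6225 bp at chr11:128560174-128566398 (fold enrichment 8.45, rank 423), covered the start of the MANE Select transcript, the reference transcript, which lies 7537 bp inside the gene record, with exon 1 and the antisense gene SENCR. Inside it sgNpm1A had a 156 bp peak, away from that start, whose fold enrichment was 2.74. The sgNpm1A promoter peak was 1251 bp at chr11:128627716-128628966 over exon 2, near an inner start, with a fold enrichment of 3.35 at percentile 86.0. At that inner start sgNeg had a 1101 bp peak, fold enrichment 3.21, at percentile 86.4. Counting the start of the gene record alone, FLI1 was ranked higher in sgNpm1A, by 11.7 percentile points, from peaks of 525 and 196 bp.

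Inside FLI1 the broadest control domain was broken up. A sgNeg peak of 13814 bp in intron 1 (chr11:128585629-128599442, fold enrichment 4.61) lay 29.2 to 43.0 kb from the record start, where sgNpm1A had separate narrow peaks, none of them wider than 1499 bp in this locus. H3K4me3 in sgNeg had peaks 8.99 and 9.48 kb inside the record, the stronger of 1079 bp with a fold enrichment of 9.78 and a summit of 46 fragments (33.7 to 61.4), at percentile 99.41. They lay more than 1 kb from the only GRCh38 start used for FLI1, whose own promoter peak was of 15 fragments (8.4 to 24.7). The FLI1 record is 128136 bp long on GRCh38 and 126733 bp on GRCh37, where the MANE Select start lay 7537 bp inside. These peaks may therefore lie at the main promoter, and the H3K4me3 promoter percentile given for FLI1 left them out. No sgNpm1A peak of H3K4me3 was listed near these peaks. The H3K27Ac share of the locus was 27.6% in sgNeg and 10.3% in sgNpm1A, and the H3K4me3 share 3.19% and 1.09%.

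ERG was the only gene of the 8 whose locus was covered by more H3K27Ac in sgNpm1A than in sgNeg. The share was 4.94% in sgNeg, from 38 peaks, and 6.29% in sgNpm1A, from 41 peaks, a ratio of 1.27, and 32.9% of loci with a sgNeg peak were covered more in sgNpm1A. The ratio depended on the peaks used: it was 2.79 at a q-value under 0.01 and 1.66 for peaks of at least 500 bp, but 0.792 at a q-value under 1e-05 and 0.859 over the 20000 peaks of lowest p-value. In sgNeg the ERG promoter peak lay at the record start, 1462 bp at chr21:40032201-40033662 with a fold enrichment of 4.65, over the CpG-rich stretch printed above. No sgNpm1A peak overlapped it. Neither guide had a listed H3K27Ac peak within 1 kb of the MANE Select start, 163303 bp inside the record. The sgNpm1A promoter peak was a different one, 162 bp wide at an inner start 77.6 kb inside the record (chr21:39955988-39956149, fold enrichment 3.71), where sgNeg had none. H3K4me3 peaks in the ERG locus numbered 50 in sgNeg and 5 in sgNpm1A, covering 3.2% and 0.433% of it, and its weak sgNeg promoter peak of 13 fragments (6.92 to 22.2) had no counterpart.

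ETV6 held the broadest H3K27Ac domains of the 8 loci and, of the loci with any sgNpm1A peak left, the lowest ratio of covered length, 0.102. The control promoter peak of 7014 bp (chr12:11801013-11808026, fold enrichment 8.4, rank 446) covered exon 1, and no sgNpm1A peak overlapped it. The widest peak of any of the 8 loci, 38306 bp at chr12:11896005-11934310, spanned exon 2 and an inner start, 93.4 to 132 kb from the record start, with a fold enrichment of 5.29, and no sgNpm1A peak overlapped that one either. Intron 2 added peaks of 10420 bp (fold enrichment 6.33, percentile 99.35) and 16784 bp (4.82). Altogether 9 sgNeg peaks of ETV6 were 5 kb or wider, against 0 of its 34 sgNpm1A peaks, the widest of which was 1205 bp. The share of the locus under peaks was 56.4% in sgNeg, at percentile 96.4 of loci, and 5.73% in sgNpm1A, at percentile 45.9. Of the 34 distal sgNpm1A peaks, 33 overlapped a sgNeg peak by at least 1 bp, against 49.6% of all distal sgNpm1A peaks, in a locus of which sgNeg peaks covered 56.4%. H3K4me3 at the promoter was 25 fragments (16.2 to 36.9) in sgNeg and not listed in sgNpm1A, where 1 peak remained in the whole locus.

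**Figure D3:**
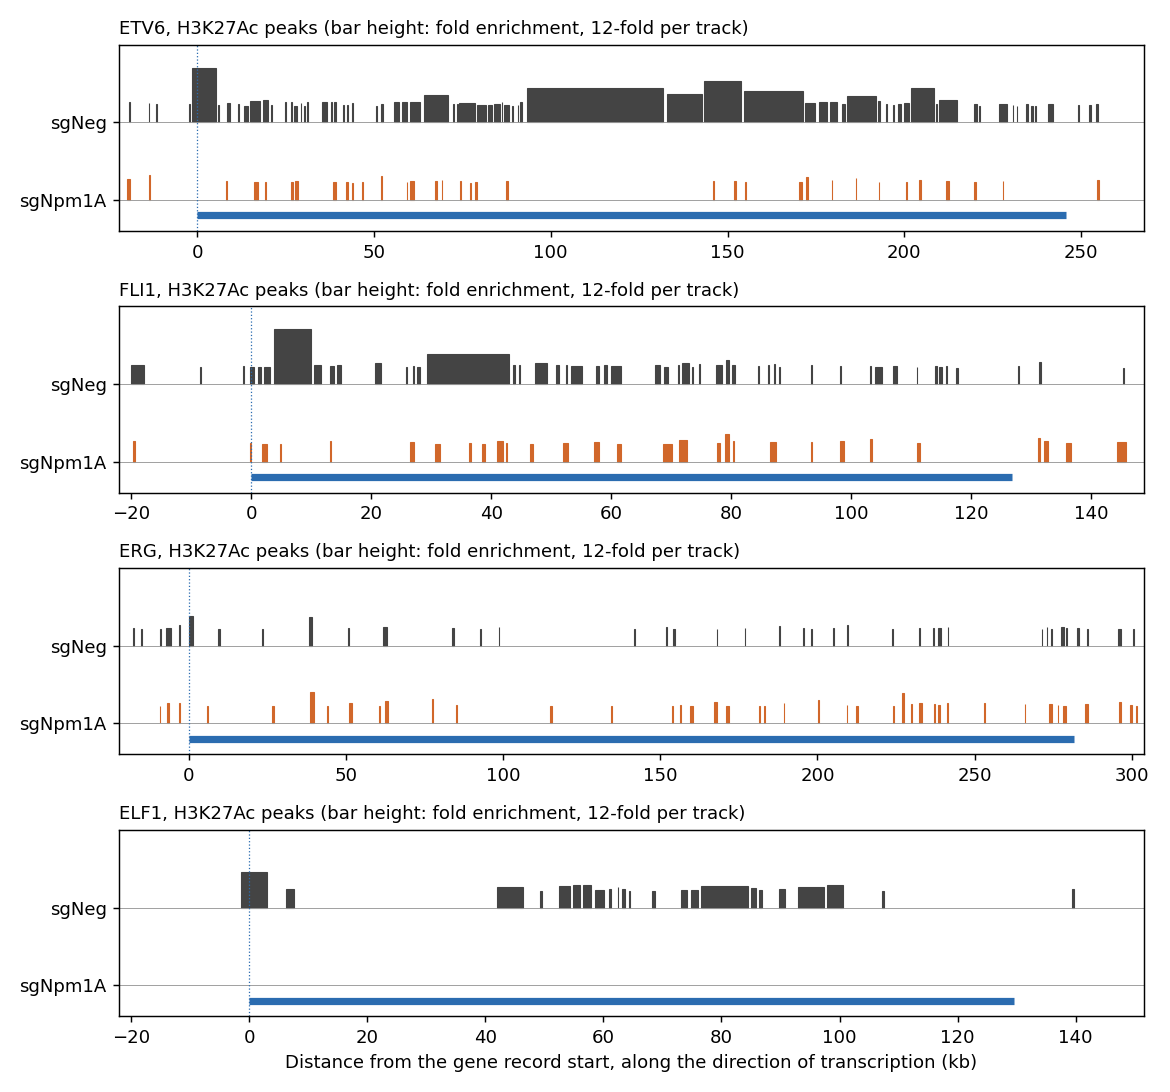
H3K27Ac peaks at ETV6, FLI1, ERG and ELF1, drawn by distance from the start of the gene record in the direction of transcription (x axis, kb), sgNeg above sgNpm1A, with bar height giving fold enrichment on a scale of 12 per track and the gene record in blue. ETV6 shows 9 domains of 5 kb or wider in sgNeg and none in sgNpm1A, ERG shows 38 and 41 narrow peaks, and the sgNpm1A track of ELF1 is empty.

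ELF1 had no listed peak of either mark in sgNpm1A. In sgNeg it had 23 H3K27Ac peaks, the strongest of 4375 bp at chr13:41632634-41637008 (fold enrichment 5.47, percentile 98.8) at the start shared with WBP4, a splicing factor gene on the other strand. A domain of 7962 bp at chr13:41551046-41559007 (fold enrichment 3.34) covered exon 2 and lay 76.6 to 84.5 kb inside the record. H3K4me3 had 3 peaks in sgNeg, the promoter peak with a summit of 19 fragments (11.4 to 29.7). Of all H3K27Ac loci 7.18% had no sgNpm1A peak, but of the 5528 loci with at least 20 sgNeg peaks only 2, or 0.0362%, were empty in sgNpm1A, ELF1 and SH3KBP1, the latter named after its values were seen. The empty stretch was longer than the gene. Within 500 kb beyond either side of the locus sgNeg had 43 H3K27Ac peaks and sgNpm1A 3, and the H3K4me3 lists had 8 and 0. The next sgNpm1A peaks of H3K27Ac lay 98.5 and 370.4 kb from the ends of the locus. Chromosome 13 as a whole had 44.9 H3K27Ac peaks per Mb in sgNeg and 42.5 in sgNpm1A. The copy number of this stretch in either culture was not measured by these lists.

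ETS1 had its strongest peaks away from the start of its gene record. The sgNeg H3K27Ac promoter peak, 1024 bp at chr11:128391785-128392808 (fold enrichment 3.71, percentile 94.9), lay in intron 3 at an inner start 64.6 to 65.7 kb inside the record, and no sgNpm1A peak overlapped it. The sgNpm1A promoter peak was at another inner start, 1192 bp at chr11:128373379-128374570 with a fold enrichment of 2.98 at percentile 55.2. It shared 898 bp with a sgNeg peak of 1559 bp (fold enrichment 2.92, percentile 67.5). H3K4me3 in sgNeg was highest at the same inner position, 65.4 kb from the record start, with a summit of 25 fragments (16.2 to 36.9) at chr11:128521788-128522155 (GRCh38). It was not counted as a promoter peak because only the record start of ETS1 was used on that build. The widest sgNeg domain, 6604 bp over exons 7 and 8, had no overlapping sgNpm1A peak. H3K27Ac covered 22.8% of the locus in sgNeg and 5.76% in sgNpm1A, and H3K4me3 1.31% and 0.942%.

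ETS2 had the strongest H3K4me3 promoter peak of the 8. In sgNeg it covered 1247 bp at chr21:38806018-38807264 (GRCh38), fold enrichment 15.2, rank 126 of 353628, with a summit of 72 fragments (56.3 to 90.7), just past the start whose sequence is printed above. The H3K27Ac promoter peak of 3596 bp (chr21:40177140-40180735, fold enrichment 7.44, rank 904) lay over exon 1. In sgNpm1A the H3K4me3 peak was not listed, and of the H3K27Ac domain a peak of 167 bp in intron 1 remained, fold enrichment 3.02 at percentile 59.8. H3K27Ac covered 45.2% of the locus in sgNeg and 11.2% in sgNpm1A. Of the 18 distal sgNeg peaks of the locus 9 were overlapped in sgNpm1A, near the 50.5% of all distal sgNeg peaks.

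Across the 8 loci the covered length of H3K27Ac in sgNpm1A was under 0.5 times that in sgNeg at 6 genes, all but SPIB and ERG, and at 7, with SPIB, for a flank of 10 kb or a q-value under 0.01. Over all loci with a sgNeg peak this was so for 31.5%. The median ratio of covered length was 0.313 for the 8 and 0.722 for all. For H3K4me3 the ratio was under 0.5 at 6 genes, all but SPIB and ETS1, against 65.6% of loci, with medians of 0.238 and 0.342. None of the 8 loci was covered by more H3K4me3 in sgNpm1A than in sgNeg, as 6.01% of loci were. Nor was any of them a locus of at least 20 sgNeg H3K4me3 peaks left with none, as 0.205% of such loci were. The 8 loci had a higher H3K27Ac coverage, with a median of 26.5% against 9.81% over all genes in sgNeg, and stood at 8.31% against 6.73% in sgNpm1A. Whether genes with equally high coverage in sgNeg differed as much was not tested.

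**Figure D4:**
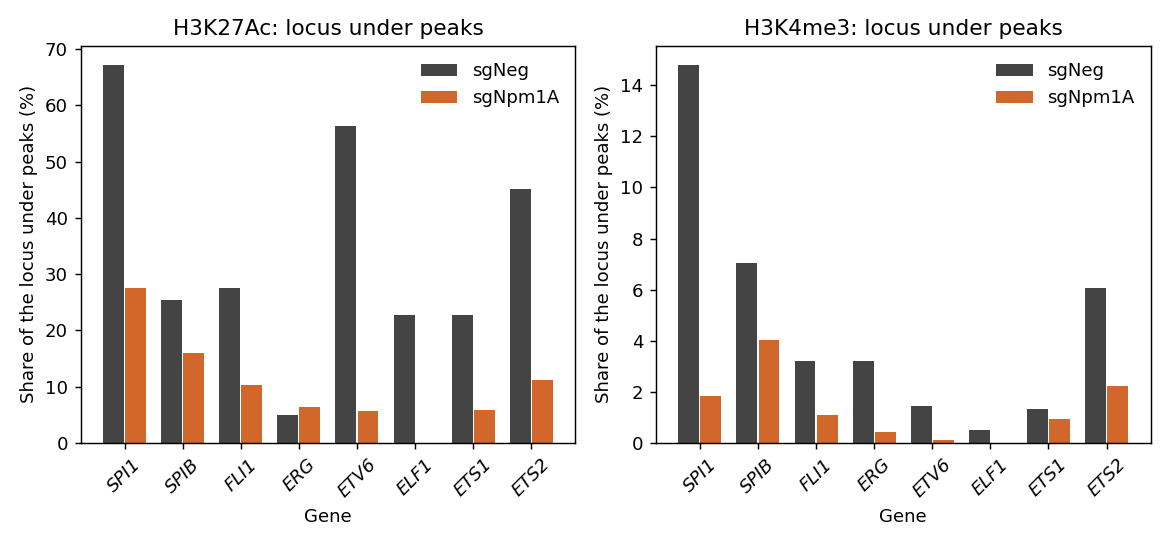
Share of each locus under listed peaks (y axis, %; the panels have different scales) for the 8 genes (x axis), H3K27Ac left and H3K4me3 right, with dark bars for sgNeg and orange bars for sgNpm1A, 1 library each. The H3K27Ac bars stand at 67.2% and 27.6% at SPI1 and at 56.4% and 5.73% at ETV6, and are higher in sgNpm1A only at ERG.

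Wide H3K27Ac peaks were frequent in the 8 loci in sgNeg, and 1 was listed in sgNpm1A. Of 265 sgNeg peaks 16, or 6.04%, were 5 kb or wider, against 1.17% of the whole list, and of 168 sgNpm1A peaks 1, or 0.595%, against 0.257%. The median sgNeg peak of the loci was 580 bp wide and the median sgNpm1A peak 466 bp, while over the whole lists the medians were 358 and 415 bp. In the 8 loci the median was therefore lower in sgNpm1A, and in the whole lists it was higher. Every gene but ERG and ETS2 had at least 1 sgNeg peak of 5 kb or wider.

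**Figure D5:**
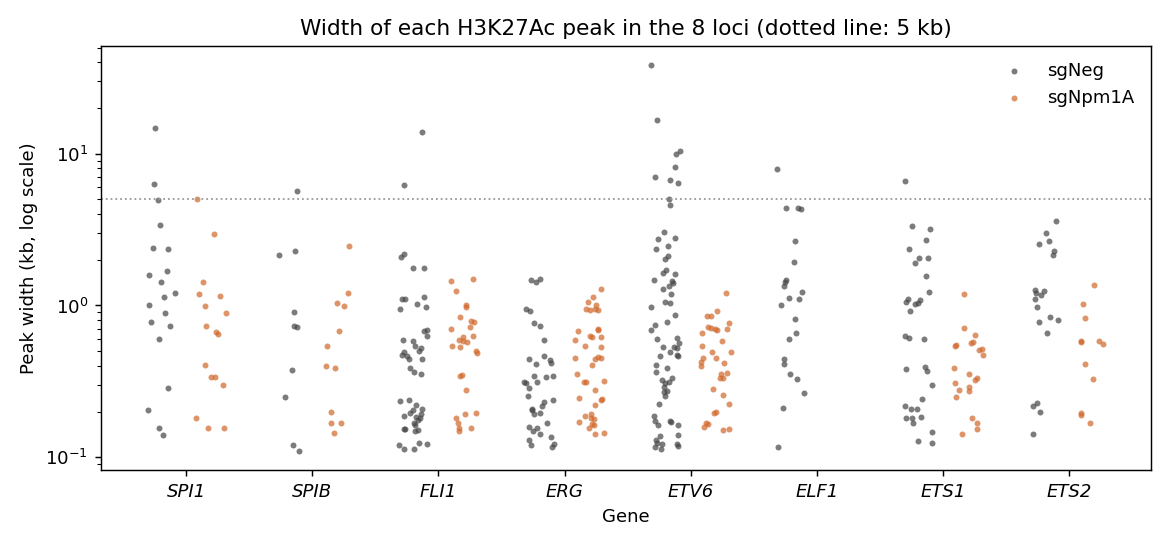
Width of every H3K27Ac peak in the 8 loci (y axis, kb, log scale) by gene (x axis), dark points for sgNeg and orange for sgNpm1A, each point 1 peak, with random sideways spread. The dotted line marks 5 kb; 16 dark points lie at or above it and 1 orange point, at SPI1.

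Distal peaks were next matched between the guides by overlap. Of 241 distal H3K27Ac peaks in sgNeg 93 were overlapped by a sgNpm1A peak, or 38.6% (95% Wilson interval 32.7 to 44.9), against 50.5% of all distal sgNeg peaks. Of 156 distal peaks in sgNpm1A 107 were overlapped by a sgNeg peak, or 68.6% (60.9 to 75.4), against 49.6%. The peaks within a locus are not independent, and the 20 of ELF1 were all without overlap. For H3K4me3 the shares were 16 of 138, or 11.6% (7.26 to 18), and 14 of 25, or 56.0% (37.1 to 73.3), against 23.5% and 61.1% of the lists. Width and base composition moved with this split, taken over all H3K27Ac peaks of the loci. The overlapped sgNeg peaks had a median width of 962 bp and the others 385 bp. The sgNeg peaks that were overlapped had a median GC content of 49.0% and the others 44.5%, and over the whole list the medians were 49.3% and 46.3%, where the genome had 40.9%. The part of coverage, width and base composition in the overlap was not tested.

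The distal sites printed above had peaks in all 4 lists, and how often this held for other distal sites was not counted. The ERG site lay 38.5 to 39.4 kb inside the record, upstream of the MANE Select start, and its fold enrichment was 4.49 in sgNeg (percentile 97.5) and 4.9 in sgNpm1A (percentile 99.5). At 38.9 kb H3K4me3 peaks had summits of 28 fragments (18.6 to 40.5) in sgNeg and 18 (10.7 to 28.4) in sgNpm1A. The ETS2 site lay 27.3 to 28.1 kb from the start, beyond the gene, in a noncoding gene record, with H3K27Ac of 4.06 (percentile 96.4) and 4.68 (percentile 99.34), and H3K4me3 summits of 20 (12.2 to 30.9) and 14 (7.65 to 23.5) fragments at 27.7 kb. The FLI1 site lay in intron 2, 79.1 kb from the record start, with H3K27Ac of 3.71 (percentile 94.8) and 4.32 (percentile 98.9), and H3K4me3 summits of 30 (20.2 to 42.8) and 20 (12.2 to 30.9) fragments at 80.6 kb on the longer GRCh38 record. The sites were chosen for a high H3K27Ac rank in sgNpm1A, so their order between the guides is no result. The H3K4me3 summits, which the choice did not use, were of fewer fragments in sgNpm1A with overlapping intervals. The background was also lower there, 2.93 fragments against 3.81 in sgNeg, and the counts were not scaled for it.

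Of the sites kept in both guides, those of ERG and FLI1 were rich in TG or CA. TG or CA made up 35.1% of the dinucleotides in the ERG peak of sgNeg and 30.1% in the FLI1 peak, both beyond percentile 99 of the list, and 18% in the ETS2 peak, at percentile 83.5. Over the whole sgNeg list 1.55% of peaks overlapped in sgNpm1A were above 25%, against 0.207% of those not overlapped, and in sgNpm1A 1.23% against 0.184%. In the 8 loci 3 of 102 overlapped sgNeg peaks and 1 of 163 others were above it. Only 3.2% of promoters held a run of TGTGTGTG. How reads from such repeats were placed on the genome is not given in the sources used here, and its part in these values was not tested.

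The other ETS family genes had medians close to those of all genes. Of 20 genes, 19 had an H3K27Ac promoter peak in sgNeg, all but SPIC, and 12 in sgNpm1A, and the median percentiles were 92.9 and 30.7, beside 92.4 and 23 over all genes. Highest in sgNeg were ETV3 (99.7), ELF2 (99.7) and ELF4 (99.69), regulators found in many cell types, of which ETV3 kept a narrow peak at percentile 90.1 and the others had none. Ranked higher in sgNpm1A were 3 genes, ETV3L (73.7 and 91.9), ELF3 (76.5 and 79.8) and SPDEF (26.1 and 51.3). ELF3 and SPDEF were also the 2 genes with an H3K4me3 promoter peak in sgNpm1A, against 16 in sgNeg. They are epithelial factors, as are EHF (85.6 and 34.8) and ELF5 (76.2 and 16.6), named after their values were seen, which were ranked lower for H3K27Ac in sgNpm1A and had no H3K4me3 promoter peak there. The highest H3K4me3 in sgNeg was at ETV3 (99.98), ERF (99.56) and ELF2 (99.15), none of them listed in sgNpm1A. The median ratio of covered H3K27Ac length was 0.756 for the 20 genes, beside 0.313 for the 8 and 0.722 for all.

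The factors that work with or against PU.1 had high control percentiles, and promoter peaks went unlisted in sgNpm1A about as often as over all genes. Of 14 genes, 13 had an H3K27Ac promoter peak in sgNeg, all but GATA1, and 9 in sgNpm1A, so 4 of 13 had none there, beside 34.0% of all promoters. The median percentiles were 99.1 and 33.5, beside 92.4 and 23 over all genes. CBFB, the partner subunit of RUNX1, reached percentile 99.95 in sgNeg, with no peak in sgNpm1A, as was so for CEBPA, MYB and JUN. GFI1, a repressor of the granulocyte lineage, had a peak of 10756 bp in sgNeg (99.89) and of 325 bp in sgNpm1A (38.7), and LMO2, a bridging factor of progenitors, 15384 bp (99.81) and 229 bp (15.2). GATA2, a stem and progenitor factor that acts against PU.1, was the 1 gene ranked higher in sgNpm1A, with percentiles of 10.3 and 96.2 from peaks of 259 and 315 bp. Whether these 2 peaks lie at the same start was not examined. The H3K4me3 promoter peak of GATA2 was at percentile 62.6 in sgNeg and not listed in sgNpm1A. After GATA2, the highest for H3K27Ac in sgNpm1A were TAL1 (89.0) and CEBPB (70.7). H3K4me3 was highest in sgNeg at CEBPA (99.98), MYB (99.81) and GFI1 (99.68), and CEBPE was the 1 gene of 14 with a sgNpm1A peak, against 11 in sgNeg, of which 10 had none in sgNpm1A, beside 88.6% of all promoters. The median ratio of covered H3K27Ac length was 0.429, beside 0.722 for all.

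Genes that PU.1 is known to activate in myeloid cells had promoter peaks of H3K27Ac at 13 of 15 in sgNeg, all but CSF2RA and NCF1, and at 7 in sgNpm1A. Of the 13, 6 had none in sgNpm1A, beside 34.0% of all promoters. NCF1 has near-identical pseudogenes and CSF2RA lies in sequence shared by X and Y, so reads there may not have been placed uniquely and their values are uncertain. ELANE, encoding neutrophil elastase, had a peak of 10314 bp at percentile 99.76 in sgNeg and none in sgNpm1A. MPO, myeloperoxidase, had 14254 bp (99.32) and 655 bp (76.2). The beta 2 integrin gene ITGB2 had peaks of 12226 bp (99.2) and 1045 bp (99.74). Its partner ITGAM was at percentiles 93.7 and 98.9 and CD14 at 71.3 and 86.8. These were the 3 genes ranked higher in sgNpm1A. In fold enrichment ITGB2 was lower there (6.05 in sgNeg and 5.62 in sgNpm1A), and ITGAM (3.57 and 4.34) and CD14 (2.96 and 3.37) were higher. Their loci were nevertheless covered by less H3K27Ac in sgNpm1A. The shares in sgNeg and sgNpm1A were 75.6% and 27.7% at ITGB2, 9.01% and 6.2% at ITGAM, and 30.7% and 8.55% at CD14. CSF1R, the macrophage growth factor receptor, was near its control rank at 90.3 and 87.5, with peaks of 6316 and 213 bp and fold enrichments of 3.34 and 3.39. H3K4me3 was listed at 8 target genes in sgNeg, highest at ELANE (99.68), CD68 (93.1) and ITGB2 (91.3), and in sgNpm1A only at CSF1R, which had none in sgNeg. All 8 were thus without one in sgNpm1A, beside 88.6% of all promoters. The median ratio of covered H3K27Ac length was 0.26, beside 0.722 for all. MPO, ELANE, LYZ, CSF3R and ITGAM of this list, and CEBPA of the one before it, are also among the myeloid markers counted above.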

How the data were processed

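ChIPmentation libraries, in which transposase adds the adapters, were made from cells labelled OCI-AML3 with antibodies to H3K27Ac and H3K4me3, with 1 library for each mark and guide and 2 inputs, the inputs not being used here. Per the labels, bcl2fastq 2.17, Trimmomatic 0.33, Bowtie 1.1.2, MACS2 2.1.0 and deepTools were used, with no roles given, and the build was hg38. The deposited H3K27Ac coordinates ran past the end of chromosome 1 of that build and followed GRCh37, and the H3K4me3 coordinates ran past the end of chromosome 17 of GRCh37 and followed GRCh38. The authors deposited 1 MACS2 list per library, in the broad layout for H3K27Ac and the narrow layout for H3K4me3, with fold enrichment as a ratio to the expected background, −log10 p-values and −log10 q-values, and a display score that was not used. Filters, shifts for transposase cutting and the handling of reads that map to several places are not given in the sources used here.

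Within each list, peaks of the autosomes and sex chromosomes were ranked by fold enrichment. Starts came from GENCODE 44 (GRCh37) and, on GRCh38, from RefSeq gene records with the RefSeq promoter table, which held 5 of the 8 genes, so SPI1, FLI1 and ETS1 had their record start only. On GRCh38, 374 genes without a strand were left out. The locus was the gene record with 20 kb on either side and a promoter 1 kb on either side of a start. Overlap meant at least 1 bp. H3K4me3 fold enrichment was taken as (fragments + 1) over (background + 1), which gave whole fragment counts within 0.02 for 100% of peaks, with exact Poisson 95% intervals. Shares have Wilson 95% intervals. Depth per library is unknown beyond the background pileups given. The scripts (Python 3.11.15, pandas 2.3.3, numpy 2.4.6, scipy 1.17.1) were tested on a copy of the sgNeg H3K27Ac list with known promoter peaks removed. Overlap, coverage and ranks were tested on random intervals, without tied values. The members and lists were chosen with earlier results of these data known. All members are named. Of other lists, the 3 genes with the highest promoter percentile in each list and all genes of a count of 5 or fewer are named. Genes whose start lies in a member locus are named with their peak, and genes most like SPI1 were the 3 nearest over the 4 promoter percentiles. No test was made between groups of 1 library. Alternatives were stricter q-values, equal list sizes, a minimum width, other promoter, flank and element windows, ranking by p-value, the record start alone and a stricter overlap.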

Additional observations from a re-analysis of the deposited data

How the results depend on the processing

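Of 110 recomputed main values under 12 alternatives, 77 kept their size and 33 moved, where the first 4 alternatives use fewer peaks and the cause was otherwise not tested. With all peaks, promoter peaks in sgNeg and sgNpm1A were listed at 45 and 28 of the other listed genes for H3K27Ac and at 35 and 4 for H3K4me3. At a q-value under 0.01 H3K27Ac promoter peaks in sgNpm1A numbered 2 of the 8 genes and 14 of the other listed genes, the SPI1 upstream window was covered to 0%, and 21.9% of distal sgNeg H3K27Ac peaks were overlapped. Under 1e-05 these became 0, 1, 0% and 12.5%, with 20 other genes in sgNeg and, for H3K4me3, 0 in sgNpm1A and 0% of the window in sgNeg. With the 20000 peaks of lowest p-value they were 1, 3, 0% and 21.4%, with 27 other genes in sgNeg, and for H3K4me3 3 of the 8 and 18 other genes in sgNeg, 0 other genes in sgNpm1A, 0% of the window and 20.0% overlap. With peaks of at least 500 bp the window was covered to 0% in sgNpm1A (H3K27Ac) and in sgNeg (H3K4me3), H3K4me3 overlap was 0%, and 19 and 2 other genes had H3K4me3 peaks. A promoter of 2 kb gave 7 other genes an sgNpm1A H3K4me3 peak. The gene record start alone gave H3K27Ac peaks in sgNpm1A at 2 of the 8 and 16 other genes. The window from 16 to 18 kb was covered to 0% in sgNpm1A (H3K27Ac) and in sgNeg (H3K4me3). An overlap of 50% of both peaks left 12.0% and 4.35% of distal sgNeg peaks shared. Directions reversed for the ERG H3K27Ac length ratio (0.792 under a q-value of 1e-05 and 0.859 with 20000 peaks) and for the FLI1 H3K27Ac promoter at the record start alone (11.7 points higher). For single genes, 43 of 45 and 43 of 43 length ratios (H3K27Ac, H3K4me3) and 59 of 60 and 41 of 41 promoter differences kept their direction.

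No paired analysis was possible because each group held 1 library, and leaving out a replicate was not possible either. Without replicates, depth or inputs, differences between the guides and between libraries cannot be told apart. The sgNpm1A H3K4me3 list held no peak under 245 bp, against 110 bp in sgNeg, which limits what it can show.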
